A study of Homo sapiens with 4 samples.

Results

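miR-210 (hsa-miR-210 on the card) was followed through all 4 samples of a microRNA survey of RPMI8226, an established cell line from a human multiple myeloma, a cancer of plasma cells. It is 1 of the 377 human miRNA assays on the TaqMan array card used, a quantitative reverse-transcription PCR plate with 1 well per miRNA, and it was taken by its name on the card. The samples were hypoxic cells (24 h at 1% oxygen), normoxic cells (24 h at 20% oxygen), and the exosome fraction of the medium of hypoxic and of normoxic cells, with 1 sample in each group. Exosomes are small vesicles that cells release, and the fraction was precipitated with a polymer reagent from 5 ml of cleared and filtered medium, which does not separate vesicles from everything else in it. Per the labels' protocols the hypoxic cells were kept in degassed AIM-V medium, while the preparation of the normoxic medium is not described there, and only the exosome products were pre-amplified before PCR. The readout is the threshold cycle (Ct), the cycle at which fluorescence crosses a threshold. A Ct lower by 1 cycle means 2 times the template when PCR runs at full efficiency, and 35, the highest value in the table, was read as not detected.

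In low oxygen, hypoxia-inducible factor escapes degradation, because the enzymes that mark it for destruction need oxygen. miR-210 is the miRNA best known to be transcribed under this factor in many cell types. Its known targets include ISCU, a scaffold for iron-sulfur cluster assembly in mitochondria, and EFNA3, an ephrin ligand that restrains vessel formation. Hypoxic tumour cells are also known to release miR-210 in vesicles, and the bone marrow in which myeloma grows is low in oxygen.

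The sequence sets what the assay and the miRNA itself recognise, so the mature strands are shown first, with the seed (bases 2 to 8 from the 5′ end, the part that pairs with targets) in capitals. The card names the assay without an arm, and it was read as the 3p strand, which the older name miR-210 denotes. The third sequence is miR-147b, the only other human miRNA in RefSeq (assembly GRCh38.p14, 2370 mature names) with the same bases 2 to 7.
miR-210-3p: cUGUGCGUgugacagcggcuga
miR-210-5p: aGCCCCUGcccaccgcacacug
miR-147b-3p: gUGUGCGGaaaugcuucugcu
Counting from the 5′ end, miR-147b differs from miR-210-3p within the first 8 bases by C1G and U8G. No other RefSeq miRNA holds the full seed of miR-210-3p. The miR-147b assay stood at the ceiling of 35 in all 4 samples, so of these 2 miRNAs only miR-210 was detected.

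The mature 3p strand lies at chr11:568112-568133 and the 5p strand at chr11:568150-568171, both on the minus strand of GRCh38.p14. The hairpin that holds both, at chr11:568089-568198, has 110 bases, and the measured 3p strand fills its bases 66 to 87, in capitals here.
MIR210 hairpin: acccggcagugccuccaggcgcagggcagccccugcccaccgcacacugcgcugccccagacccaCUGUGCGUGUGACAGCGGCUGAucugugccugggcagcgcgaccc
The hairpin begins 259 bases downstream of the start of MIR210HG, the long noncoding host gene, whose promoter window in RefSeq (250 bases before to 50 after the start, chr11:568408-568707, minus strand) is shown because hypoxia-inducible factor is known to act there. Capitals mark the core letters of the hypoxia response element, searched as ACGTG and GCGTG on both strands.
MIR210HG promoter: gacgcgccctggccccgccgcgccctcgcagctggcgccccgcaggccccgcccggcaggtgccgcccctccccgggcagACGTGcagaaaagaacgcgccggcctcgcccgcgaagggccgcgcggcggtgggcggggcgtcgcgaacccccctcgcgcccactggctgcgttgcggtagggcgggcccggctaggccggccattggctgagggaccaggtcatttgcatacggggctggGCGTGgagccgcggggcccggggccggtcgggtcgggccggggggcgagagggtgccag
The window holds ACGTG once and GCGTG once, both on the strand of the gene and without overlap. Of the 35116 promoter windows of this length in the table, 21.4% hold ACGTG, 36.5% hold GCGTG and 48.4% hold at least 1 of them, on either strand. Such short letters are common, and a match is a description of the sequence only.

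Of the 377 human assays, 222 stood at the ceiling in hypoxic cells, 215 in normoxic cells, 158 in the hypoxic exosome fraction and 156 in the normoxic exosome fraction. miR-210 was detected in every sample. The small nuclear RNA U6, the control for cells, had a Ct of 18.81 ± 0.12 in hypoxic and 18.82 ± 0.15 in normoxic cells (SD, n = 4 wells of 1 sample). The added plant miRNA ath-miR159a, the control for the exosome fraction, stood at 22.99 in the hypoxic and 22.94 in the normoxic exosome fraction. The 5 blood and lymphoid miRNAs listed for a check of the labels, miR-142-3p, miR-146a, miR-150, miR-155 and miR-223, were detected in all 4 samples, as were 36.6% of the 377 assays. Of 3 epithelial miRNAs, miR-205 was detected in every sample, miR-200c in the cells only and miR-141 in the exosome fraction only. The epithelial miRNAs miR-200a, miR-200b, miR-203 and miR-429, outside that list and named after their values were seen, were detected in all 4 samples, so detection does not separate the blood miRNAs from these. Of the muscle miRNAs, miR-1 was seen in the exosome fraction only and miR-133a in all but the normoxic cells. The liver miRNA miR-122 and the red cell miRNA miR-486-5p were at the ceiling in every sample, and miR-451, also of red cells, was seen only in the normoxic exosome fraction, at Ct 33.2. Only U6 was measured in repeat wells, so its spread is the one error available, and differences between groups have none from replicates.

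The Ct of miR-210 was 27.44 in hypoxic cells and 30.998 in normoxic cells. In the exosome fraction it was 23.66 after hypoxia and 23.99 in normoxia. The cell samples therefore lay more than 3 cycles apart and the exosome samples less than 1 cycle. Relative to U6, miR-210 was detected 8.63 cycles later in hypoxic cells and 12.2 cycles later in normoxic cells. Relative to ath-miR159a it was 0.67 cycles later in the hypoxic and 1.06 cycles later in the normoxic exosome fraction.

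Within each sample the assays were placed in order of Ct, which needs no normalizer, although assays differ in PCR efficiency and an order between them is approximate. miR-210 took place 29 among the human assays in hypoxic cells and place 79 in normoxic cells. It took place 58 in the hypoxic and place 73 in the normoxic exosome fraction. In hypoxic cells its neighbours were miR-520e (27.01) and miR-331-3p (27.05) on one side and miR-26b (27.74) and let-7g (27.76) on the other, and no assay lay within 0.15 cycles of it, the larger SD of the U6 wells. In normoxic cells 8 assays lay that close, with miR-221 (30.95) and miR-20b (30.96) just ahead and miR-324-3p (31.001) and miR-101 (31.04) just behind. Their order against miR-210 is therefore not resolved. That SD comes from U6 wells near Ct 18.8 in cells, and U6 stood at 35 in the exosome fraction. The spread at the Ct of miR-210 was not measured, so a larger distance does not by itself resolve an order. In the hypoxic exosome fraction only miR-200a (23.63) lay within that distance, followed outwards by miR-301a (23.04) on its side and by miR-886-3p (23.95) and miR-221 (23.96) on the other. In the normoxic exosome fraction 10 assays did, the closest being miR-26b (23.98) and miR-203 (23.97) ahead and miR-374b (24.00) and miR-423-5p (24.00) behind. Many Ct values lay close to whole numbers, as described at the end. miR-210 lay 0.0025 cycles from one in normoxic cells and 0.007 in the normoxic exosome fraction, against 0.44 and 0.34 in the hypoxic samples. The number of close assays therefore does not measure how far miR-210 stands apart.

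**Figure D1:**
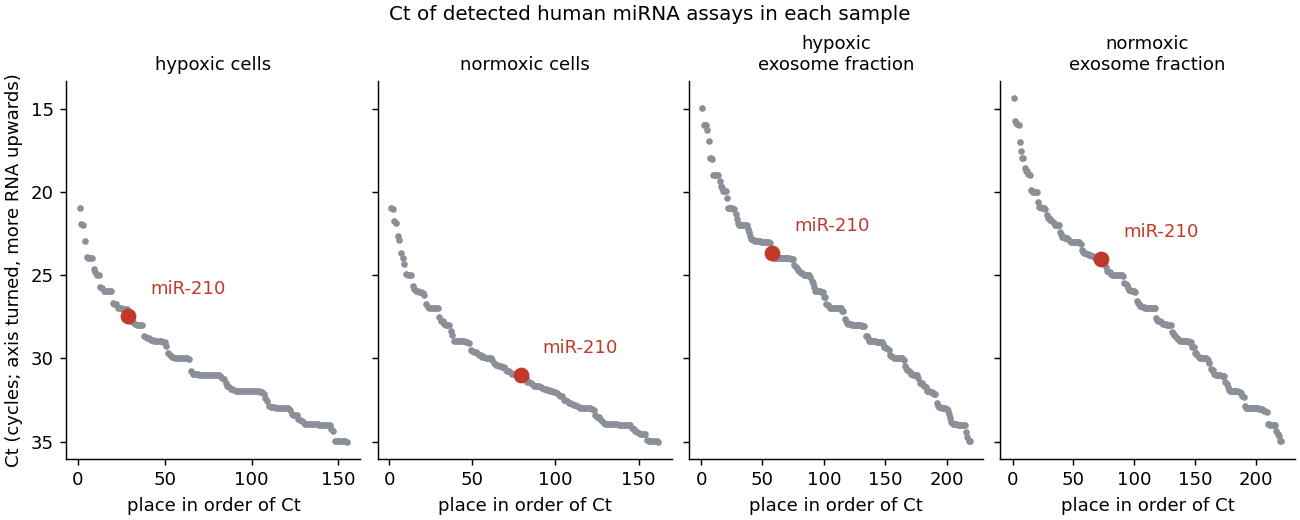
Ct in cycles (vertical axis, turned so that more RNA is upwards) against place in the order of Ct for the assays under Ct 35 in each of the 4 samples. Each grey point is 1 assay and the red point is miR-210, at place 29 in hypoxic cells, 79 in normoxic cells, 58 in the hypoxic and 73 in the normoxic exosome fraction.

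The first comparison asked what hypoxia does to cellular miR-210. It was 11.7-fold higher in hypoxic than in normoxic cells after normalization to U6, a log2 change of 3.55. This was the highest of the 147 changes measured, those of assays under Ct 35 in both cell samples, whose median was 0.03. Of these assays 7.48% were 2-fold or more higher in hypoxic cells, miR-210 among them. Assays at the ceiling in 1 of the cell samples have no change here, and some of them swung by more cycles than miR-210. In normoxic cells miR-493 (Ct 20.94), miR-15a (30.10) and miR-449a (30.41) were detected, and all stood at 35 in hypoxic cells. Of those seen in hypoxic but not in normoxic cells, the lowest Ct was 32.36, for miR-455-3p. In bulk RNA, more cells that make miR-210 and more miR-210 per cell cannot be told apart. The authors' deposited table gives a ratio of 11.7 for the cells and 1.31 for the exosome fraction.

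The next assays in the order were miR-194, at a log2 change of 2.13, miR-193a-3p (1.59), miR-32 (1.34), miR-130b (1.29) and miR-491-5p (1.22). The first 3 of these were measured close to the ceiling, with Ct values of 32.8 to 33.6 in hypoxic cells and 34.96 to 34.99 in normoxic cells. With a Ct under 32 required in both cell samples, 94 assays remained, and miR-210 alone of them (1.06%) was 2-fold or more higher. The next in that set was miR-494, 1.88-fold higher. Among the 25 other assays whose mean Ct over the cell samples lay within 1 cycle of that of miR-210 (29.2), the log2 changes ranged from -0.46 for let-7b to 0.86 for miR-150, with a median of 0.07, and none was past 2-fold either way. The change of miR-210 thus lay outside the range of assays measured at a similar Ct.

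The order of Ct restates this change without a control RNA. Of the 146 other assays detected in both cell samples, 28 had a lower Ct than miR-210 in hypoxic cells and 75 in normoxic cells. miR-210 passed 47 of them, and none could pass it, since its change was the highest. Each of the 146 then served in turn as the only normalizer, a setting chosen after seeing the data. The log2 change of miR-210 ranged from 1.43 (against miR-194) to 5.66 (against miR-422a), with a median of 3.52. It was at least 1 against every one. Such a value is the change of miR-210 minus that of the other assay, so it restates the order of changes.

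The second comparison asked whether the exosome fraction followed. After normalization to the spike-in, the hypoxic exosome fraction held 1.31-fold more miR-210 than the normoxic one, a log2 change of 0.39. It took place 25 of the 203 assays under Ct 35 in both, whose median was -0.07. With a Ct under 32 required in both it took place 14 of 177, and with a Ct under 33 place 19 of 187, since assays with higher changes left the set. Assays at the ceiling in 1 of the exosome samples have no place here. After hypoxia miR-520e (Ct 18.98), miR-139-3p (27.94) and miR-215 (28.07) were detected, and all stood at 35 in normoxia. Of those seen in the normoxic but not in the hypoxic exosome fraction, the lowest Ct was 30.08, for miR-509-5p. Of the 203 assays under Ct 35 in both, 3.94% were 2-fold or more higher in hypoxia, and miR-210 was not one of them. A fixed volume of medium went into each preparation, so more vesicles and more miR-210 per vesicle cannot be told apart.

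Its neighbours in this order differed from it by little. miR-15b (0.41), miR-19a (0.44), miR-10a (0.44), miR-618 (0.45) and miR-889 (0.45) stood above it on the log2 scale, and miR-29c (0.39), miR-200a (0.38), miR-361-5p (0.37), miR-570 (0.36) and miR-219-5p (0.36) below it. The 35 other assays with a mean Ct within 1 cycle of that of miR-210 (23.8) had log2 changes from -0.79 for miR-181a to 0.64 for miR-183, with a median of -0.11, and the value of miR-210 lay inside that range. In the order of Ct it passed 16 of the 202 other assays and was passed by none. Against each of the 202 as the only normalizer its log2 change ran from -1.79 (miR-130a) to 3.22 (miR-516b), with a median of 0.46. It was above 0 against 178 and at least 1 against 20. Each value is the change of miR-210 minus that of the other assay, so these restate its place in the order. With the median Ct of the 203 assays as normalizer the log2 change of miR-210 was 0.59, over 1.5 times the value with the spike-in, and still under 2-fold.

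**Figure D2:**
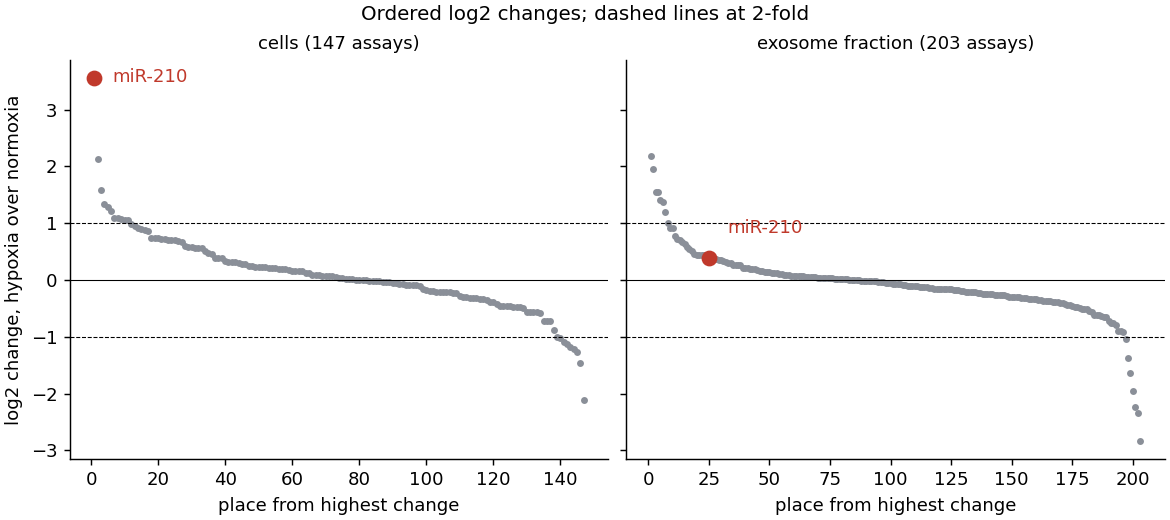
Log2 change of hypoxia over normoxia (vertical axis) against place from the highest change, for the 147 assays measured in both cell samples (left) and the 203 measured in both exosome samples (right). Grey points are single assays, the red point is miR-210, and dashed lines mark 2-fold. miR-210 stands alone at 3.55 in cells and within the run of assays at 0.39 in the exosome fraction.

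Over the controls and settings tried other than single assays, the log2 change of miR-210 in cells ranged from 3.29, with 1.9-fold instead of 2-fold amplification per cycle, to 3.61, without the third U6 well. It was 3.40 with the small nucleolar RNAs RNU44 and RNU48 as controls and 3.56 with no normalizer. Such a setting shifts or scales every assay alike, so the place of miR-210 could not change with it.

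**Figure D3:**
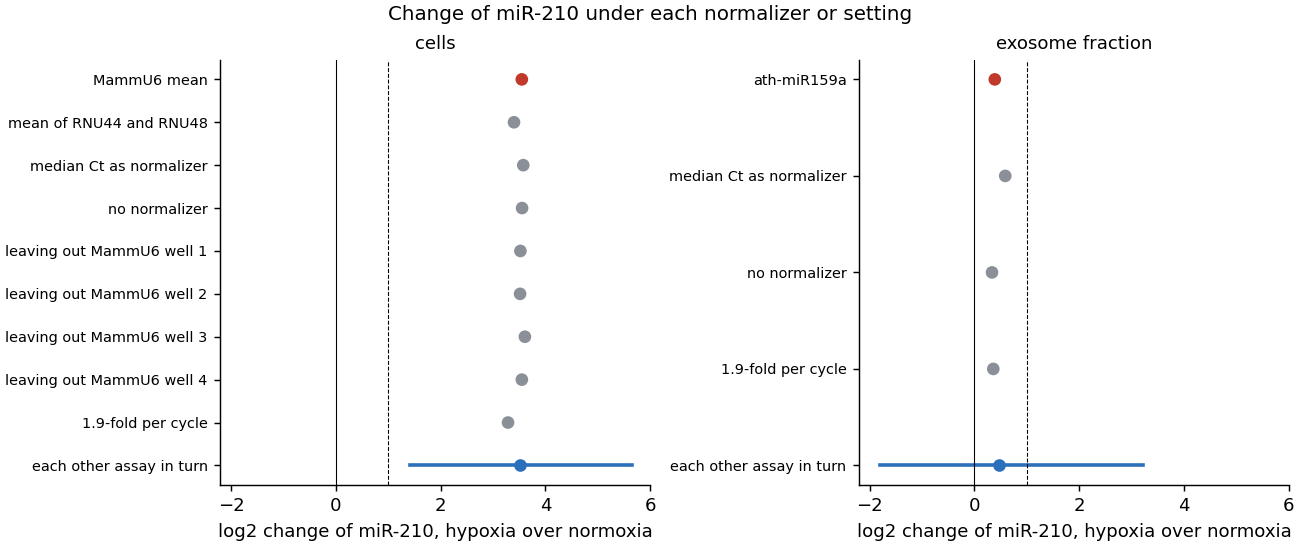
Log2 change of miR-210, hypoxia over normoxia, under each normalizer or setting in cells (left) and the exosome fraction (right). Red points are the values reported, grey points the alternatives, and the blue bar gives the lowest, median and highest value with each other assay as the only normalizer (1.43, 3.52 and 5.66 in cells; -1.79, 0.46 and 3.22 in the exosome fraction). The solid line marks no change and the dashed line 2-fold.

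The third comparison set both responses side by side. The log2 change of miR-210 was 0.39 in the exosome fraction, relative to the spike-in, and 3.55 in cells, relative to U6. The difference was -3.16, so the response of the exosome fraction was 8.95-fold lower, with each response on the scale of its own control. The 137 other assays detected in all 4 samples all had a higher difference, and 10.1% of this set, miR-210 included, were 2-fold or more lower. miR-194 (-2.24), miR-193a-3p (-1.85), miR-301b (-1.77), miR-491-5p (-1.53) and miR-32 (-1.31) came next. Even the highest exosome change of this set, 1.20 for miR-323-3p, would have left miR-210 at the lowest place. That place therefore restates its change in cells and is no separate result about the exosome fraction. The value of miR-210 lay between -3.26 and -3.01 over the normalizers tried, each of which shifts all assays alike. No test could be made with 1 sample per group.

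The level in the exosome fraction was also set against that in cells at each oxygen level, after subtracting from each Ct the median of this set of assays in that sample, since neither control RNA was detected in both compartments. miR-210 was 9.19-fold lower in the exosome fraction than in cells under hypoxia, a log2 ratio of -3.20, at place 124 from the highest and 15 from the lowest. In normoxia the ratio was 1.04-fold, a log2 ratio of 0.05, at place 48. Of these assays 24.6% were 4-fold or more lower in the exosome fraction under hypoxia, miR-210 among them, and 18.1% in normoxia. These ratios depend on the centre: with the median of all detected assays of each sample they were -0.23 under hypoxia and 2.85 in normoxia. The hypoxic minus the normoxic ratio was -3.26 with the first centre and lay between -3.26 and -2.98 over the 4 centres tried. It is the difference of responses given above, from the same 4 Ct values with other normalizers, and not a second result.

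**Figure D4:**
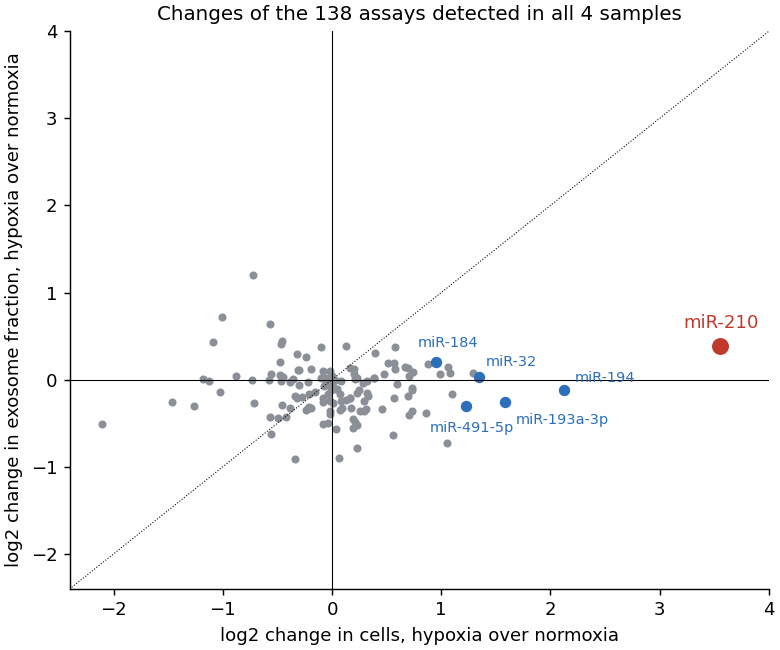
Log2 change in the exosome fraction (vertical axis) against log2 change in cells (horizontal axis), hypoxia over normoxia, for miR-210 and the 137 other assays detected in all 4 samples. The red point is miR-210 (0.39 in the exosome fraction, 3.55 in cells), blue points are the 5 assays with the most similar pattern over the samples, and the dotted line marks equal changes.

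Likeness of pattern was measured as the Euclidean distance to miR-210 over the 4 samples, after centring Ct on the sample median and on each assay's own mean. The nearest of the 137 other assays were miR-32 (distance 1.58 cycles), miR-193a-3p (1.78), miR-184 (1.85), miR-491-5p (1.91) and miR-194 (1.93), against a median distance of 2.90. All of them had a higher level in hypoxic than in normoxic cells, with log2 changes from 0.95 for miR-184 to 2.13 for miR-194. Selection by likeness to miR-210 favours such a rise, since its own largest deviation was in hypoxic cells (centred Ct -2.59). In the exosome fraction the changes of these 5 assays ran from -0.31 for miR-491-5p to 0.20 for miR-184. None had a Ct under 31 in cells, whereas miR-210 had 27.44 in hypoxic and 30.998 in normoxic cells. By distance over the 2 oxygen changes alone, which come from the same Ct values, 4 of these 5 were again among the nearest, with miR-130b in place of miR-184.

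Other miRNAs reported in hypoxia were looked at as a list of 21 assays without miR-210. In cells 19 were measured in both samples, none was past 2-fold in either direction, beside 13.6% of all assays measured in cells, and their median log2 change was 0.09, beside 0.03 for all assays. With a Ct under 32 in both cell samples, where most of the 19 lay, 5 of 94 assays were past 2-fold. The highest of the list was miR-23b (0.90, Ct 32.11 in hypoxic and 33.01 in normoxic cells) and the lowest miR-23a (-0.73). miR-26a (0.23), miR-27a (0.17) and miR-24 (0.08), long listed with miR-210 as hypoxia-responsive, and miR-21 (-0.24), an abundant oncogenic miRNA, lay between them. Of the cell samples, miR-107 and miR-424 were seen in the hypoxic one only, at Ct 33.1 and 33.3, so the 2-fold count leaves them out. Taken at 35 in normoxic cells, both would be past 2-fold higher. By the same rule so would miR-455-3p (Ct 32.36 in hypoxic cells), miR-133a (32.96), miR-28-5p (33.94) and miR-215 (33.98), all outside the list. In the other direction miR-493, miR-15a and miR-449a, among others, would be past 2-fold lower if taken at 35 in hypoxic cells. The rule thus does not single out the list members. Over all 377 assays, 222 stood at the ceiling in hypoxic and 215 in normoxic cells, and 147 were under it in both. More assays were thus seen in normoxic cells only than in hypoxic cells only. In the exosome fraction 18 of the list were measured, none was past 2-fold, beside 7.39% of all assays, and the median was -0.23, beside -0.07 for all assays. With a Ct under 32 in both exosome samples, where all 18 lay, 2 of 177 assays were past 2-fold. The changes of the list ran from -0.79 for miR-181a to 0.26 for miR-21, so every measured member lay below the 0.39 of miR-210. So did 178 of the 202 assays other than miR-210 measured there.

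A second list held 13 miRNAs reported to act on hypoxia-inducible factor or its regulators. In cells 10 were measured in both samples, with a median log2 change of 0.18, beside 0.03 for all assays. miR-429, 2.76-fold lower in hypoxic cells at Ct 33.97 against 32.5 in normoxic cells, was the only one past 2-fold, and 6.12% of all assays measured in cells were that much lower. miR-31 (0.05) and miR-135b (0.20), both linked to the factor-inhibiting enzyme FIH, were within 2-fold, and miR-184 was 1.93-fold higher. miR-155 (0.69), miR-138 (0.23), miR-20b (0.21), miR-18a (0.16), miR-17 (-0.07) and miR-20a (-0.34) were within 2-fold. In the exosome fraction 11 were measured and none was past 2-fold, beside 7.39% of all assays. Under Ct 32 in both exosome samples, where all 11 lay, 2 of 177 assays were past 2-fold. The changes of the 11 ran from -0.27 for miR-424 to 0.20 for miR-184 with a median of -0.08, beside -0.07 for all assays. miR-199a-5p stood at the ceiling in all 4 samples. miR-107, miR-155 and miR-424 belong to both lists. Of the cell samples, miR-107 and miR-424 were seen in the hypoxic one only, at Ct 33.1 and 33.3. They are therefore not among the 10, and the 2-fold count in cells does not cover them. Assays outside both lists, such as miR-455-3p, miR-133a, miR-28-5p and miR-215, were also seen in hypoxic but not in normoxic cells.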

How the data were processed

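The authors deposited the threshold cycle (Ct) of 384 wells in 4 samples, not normalized, and a table of their ratio of hypoxia over normoxia per well, made with Data Assist version 3.1 per the series' design text. That text names a U6 RNA as control for cells and the spike-in ath-miR159 for the exosome fraction. Ratios recomputed with these controls differed from the authors' deposited ratio by at most 0.000356 on the log2 scale. The sources used here do not say how 35 was set as the highest Ct. A Ct carries no read depth. Each group is a single sample and each miRNA a single well, so no p-value was computed.

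Log2 changes are negative differences in normalized Ct (Python 3.11.15, pandas 2.3.3). Assays needed a Ct under 35 in each sample of a comparison. The threshold was 2-fold (4-fold for exosome fraction over cells). The calculation was run on simulated Ct values with known 4-fold changes, small noise and no ceiling. This checks the arithmetic only and not the error of the measured values. miR-210, the lists and the alternatives were chosen with earlier results of these data known. The miRNAs named are the controls, neighbours of miR-210 in each order, the 5 nearest patterns, list members and the seed relative. The seed relative shares bases 2 to 7 and was added after the sequences were read. Also named, after their values were seen, were assays at the end of a range and assays at the ceiling in part of a comparison's samples. Sequences are RefSeq's (GRCh38.p14), and no genome build belongs to the card.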

Additional observations from a re-analysis of the deposited data

How the results depend on the processing

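No paired analysis was possible because each group is 1 sample, and no replicate could be left out. A value was taken to have moved when it shifted by more than the larger SD of the U6 wells (0.15). The place of miR-210 among the changes cannot move with a normalizer or an efficiency shared by all assays. A stricter Ct limit moved it to 14 (under 32) and 19 (under 33) in the exosome fraction, against 25 with the limit of 35. In cells its log2 change moved to 3.29 with 1.9-fold amplification per cycle, and ran from 1.43 to 5.66 with each single assay as normalizer. In the exosome fraction it was 0.59 with the median Ct as normalizer and ran from -1.79, a reversal, to 3.22 with single assays. The values with single assays only subtract the change of each such assay from that of miR-210. The number of assays past 2-fold either way, 20 in cells and 15 in the exosome fraction, was 5 and 2 when both samples had to be under Ct 32, and 9 and 7 at a limit of 33. For the difference of responses, 22 assays past 2-fold became 7 with Ct under 32 in all 4 samples. These limits test fewer assays by construction. The exosome-over-cells log2 ratio was -2.27 under hypoxia and 0.71 in normoxia with the mean Ct as centre, -2.21 and 0.80 with the median of assays under 32, and -0.23 and 2.85 with the median of all detected assays. With this last centre 70 assays instead of 27 were past 4-fold in both oxygen conditions. It takes in assays seen in only 1 compartment. Near the ceiling a ratio of 1 well over 1 well has no measured error.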

Other observations

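Many Ct values lay close to whole numbers. Within 0.1 cycles of a whole number were 71.6% of the detected human assays in hypoxic cells, 53.7% in normoxic cells, 67.1% in the hypoxic exosome fraction and 61.1% in the normoxic exosome fraction, where evenly spread decimals would give 20%. Within 0.05 cycles, a limit added after seeing the data, the shares were 60.6%, 38.9%, 55.7% and 47.1% in the same order, where even decimals would give 10%. miR-210 itself lay 0.44 cycles from a whole number in hypoxic cells and 0.0025 in normoxic cells, and 0.34 in the hypoxic and 0.007 in the normoxic exosome fraction. The part of this clustering in the changes of miR-210 was not tested.

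The spike-in ath-miR159a stood at the ceiling of 35 in hypoxic and in normoxic cells, although the labels' protocol has it added to cell lysates as well as exosome lysates. In the exosome fraction, the only products that were pre-amplified, it was at 22.99 after hypoxia and 22.94 in normoxia. miR-210 therefore has no value relative to a common added standard in both compartments.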
